A study of Drosophila melanogaster with 12 samples.

Results

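Contacts between the single X chromosome and the autosomal arms 2L, 3L and 3R were examined in Hi-C libraries of PnM cells. A contact was any deposited read pair with exactly 1 side on X and the other side on the maternal or the paternal homolog of 2L, 3L or 3R. The 8 libraries held 5019929 such pairs of 143354680 pairs in all, or 3.5%. Both sides were assigned to fixed windows of 200 kb of the dm3 assembly, which gave 113 windows of X, 116 of 2L, 123 of 3L and 140 of 3R, and 42827 window pairs between X and an arm.

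PnM is a clonal male cell line from embryos of a cross between a DGRP-057 mother and a DGRP-439 father, so that maternal and paternal homologs differ by single-nucleotide variants (SNVs). It expresses Mef2, a marker of the mesoderm. As a single male clone it is limited as a model, and all groups share its genotype, including a maternal disomy along most of 3R in part of the cells, where 2 maternal copies stand in place of a maternal and a paternal one, as the study's methods describe. The X comes from the mother alone and has no homolog to pair with. Every library was made from cells fixed with 1% formaldehyde and digested with DpnII. There were 4 groups of 2 libraries: untreated cells, mock RNAi (transfected with water in place of double-stranded RNA), Slmb RNAi and Top2 RNAi (each with 30 µg of double-stranded RNA on the first and the third day, harvested on the fourth). Slmb is the substrate-binding subunit of an SCF ubiquitin ligase, and Top2 is topoisomerase II, which passes DNA strands through each other. The same 2 mock RNAi libraries served as controls for both knockdowns. Levels of the 2 targeted transcripts were not analysed here. The study's methods call the 2 replicates of each RNAi treatment biological, and for untreated cells the labels give only the replicate number.

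In many *Drosophila* nuclei chromosomes keep the orientation of the preceding anaphase, known as the Rabl orientation. Centromeres gather at one side of the nucleus and telomeres at the other, and arms run in parallel between them. Under such an arrangement loci on different chromosomes at a like distance from the centromere are near each other, and telomeres of different arms can cluster. Contacts between different chromosomes are called *trans*-heterolog contacts. For X they are a view of nuclear arrangement that homolog pairing cannot dominate, since the male X is unpaired.

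Untreated libraries held 37284329 and 38465767 pairs and the RNAi libraries 10190412 to 12077016. Between X and the arms there were 1304256 and 1454224 pairs in untreated cells and 295688 to 432928 in each RNAi library. The pooled untreated map thus had 64.4 pairs in a mean window pair, against 6.90 in the smallest library. In each library both sides had a mapping quality of at least 20 in 87.0 to 88.8% of X–autosome pairs. X lacks a second haplotype in the hybrid genome, so that an X side needs no SNV to be assigned, whereas an autosomal side does.

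The first question was how much of the contacts of X went to the autosomes. Of X pairs that were either *cis* and at least 1 kb apart or joined X to the 3 arms, the autosomal share was 12.1% and 12.9% in untreated cells. It was 11.8% and 10.4% after mock RNAi, 11.4% and 9.79% after Slmb RNAi, and 11.5% and 8.13% after Top2 RNAi. The 2 Top2 libraries were farther apart than any other replicates, and the second was the lowest of all. Mean shares were 12.5% ± 0.585 (SD, n = 2) for untreated cells and 11.1% ± 1.03 (n = 2) for mock RNAi, a difference of −1.43 percentage points (exact permutation test, two-sided, p = 0.33, the smallest that 2 libraries against 2 allow). Slmb RNAi differed from mock RNAi by −0.48 and Top2 RNAi by −1.29 percentage points (exact permutation p = 0.67 for each). Without the second Top2 library the latter became 0.39, and without the second Slmb library the former became 0.33. None of the 3 differences exceeded what 2 replicates can resolve.

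**Figure D1:**
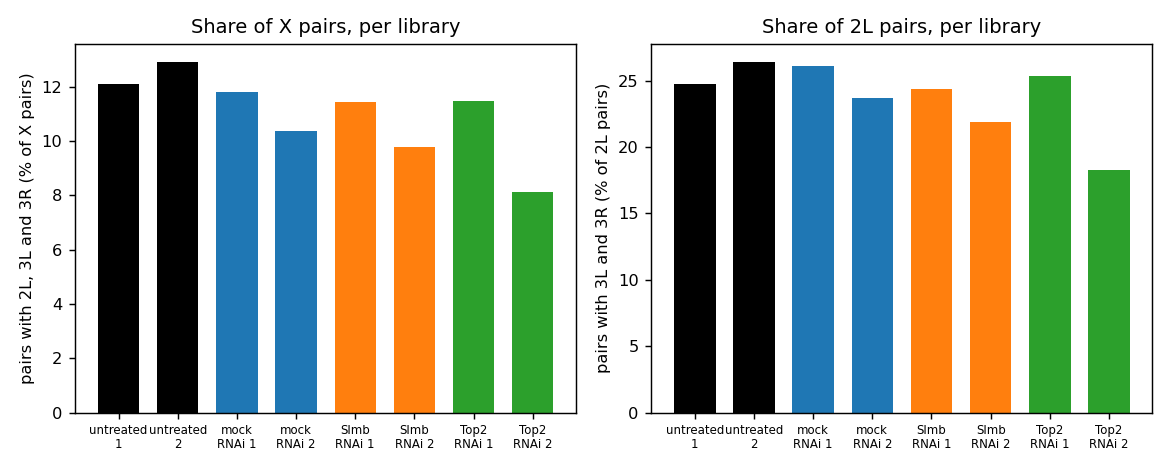
Share of pairs that join another chromosome, in percent, for X (with 2L, 3L and 3R) on the left and for 2L (with 3L and 3R) on the right, with a bar for each of the 8 libraries, coloured by group. The second Top2 RNAi library is lowest in both, with 8.13% for X and 18.3% for 2L.

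The share of 2L pairs that went to chromosome 3 moved in a like manner, from 24.8% and 26.4% in untreated cells to 18.3% in the second Top2 library. To set X beside 2L, pair numbers were divided by the lengths of both chromosomes and by the square root of the product of their *cis* densities, which stands for how visible a chromosome is to the assay. By this measure contacts of X with an arm were 0.17 lower than those of 2L with chromosome 3 on the log2 scale (± 0.05, SD over 8 libraries, exact sign-flip permutation test, two-sided, p = 0.0078), and lower in all 8 libraries, from −0.23 to −0.09. The sign depended on what was taken as visibility. With *cis* pairs 10 kb to 1 Mb apart the mean was −0.056 (exact permutation p = 0.055), and with 1 in 2 of the pairs between homologs added to the autosomal *cis* pairs it was 0.24 (exact permutation p = 0.0078, above 0 in 8 of 8 libraries). Whether X met the autosomes more or less often than 2L met chromosome 3 was therefore not settled by these pairs.

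The ends of X had the clearest pattern. Each end was taken as the outermost 5 windows that were not masked, and the block of 5 by 5 windows at 2 ends was compared with the number expected from the marginal sums of the map between X and each homolog. The telomere end of X met the telomere ends of 2L, 3L and 3R more often than expected in 8 of 8 libraries each, and the centromere end of X met the centromere ends of 2L and 3R more often than expected in 8 of 8 and that of 3L in 7 of 8. In all 6 blocks that joined a telomere end to a centromere end the mean was below the expected number.

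Telomeres of *Drosophila* carry arrays of retrotransposons in place of simple repeats, and the windows used here lie next to them. The telomere block of X, chrX:1-1000000, gave its highest values with that of 3R, chr3R:27000001-27905053. The log2 ratio of observed to expected pairs was 0.40 and 0.33 in untreated cells, 1.03 and 1.14 after mock RNAi, 0.71 and 0.78 after Slmb RNAi, and 0.91 and 1.17 after Top2 RNAi. Untreated cells were lowest, with no overlap with the RNAi libraries, and Slmb RNAi lay between them and mock RNAi. The mean was 0.81 ± 0.32 (SD, n = 8, exact sign-flip permutation test, adjusted p = 0.013 over 12 blocks). Without the narrow segments described further on it was 0.74 ± 0.33. In pooled untreated cells this block held 2012 pairs where 1562 were expected.

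With the telomere end of 2L, chr2L:1-1000000, the log2 ratio was 0.17 and 0.18 in untreated cells, 0.60 and 0.58 after mock RNAi, 0.41 and 0.48 after Slmb RNAi, and 0.51 and 0.76 after Top2 RNAi. With that of 3L, chr3L:1-1000000, it was 0.19 and 0.09, 0.54 and 0.57, 0.31 and 0.41, and 0.48 and 0.71 in the same order. Again the untreated libraries were lowest and those of Slmb RNAi lay below those of mock RNAi in both arms. The means were 0.46 ± 0.21 and 0.41 ± 0.21 (SD, n = 8, exact permutation, adjusted p = 0.013 for each).

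Maternal and paternal partners gave like values at the telomeres. With 3R the mean log2 ratio was 0.79 ± 0.31 for the maternal and 0.85 ± 0.34 for the paternal homolog, and their difference was −0.06 ± 0.09 (n = 8, exact permutation p = 0.11, adjusted p = 0.23 over 6 such differences, from −0.20 to 0.04). The differences were 0.03 ± 0.14 for 2L (exact permutation p = 0.51, n = 8, adjusted p = 0.56) and 0.02 ± 0.10 for 3L (exact permutation p = 0.56, n = 8, adjusted p = 0.56).

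Telomere contacts of X with 3R stood above those of 2L with 3R. The telomere block of 2L with 3R had a mean log2 ratio of 0.52 ± 0.19, and X exceeded it by 0.29 ± 0.15 (n = 8, exact sign-flip permutation p = 0.0078, adjusted p = 0.031 over 4 such differences), in each library by 0.05 to 0.50. With the narrow segments left out of the X block, this did not hold in each library. The ratio of X was then 0.30 and 0.24 in untreated cells, where that of 2L was 0.22 and 0.28. In every RNAi library X stayed above 2L. With 3L the order was the opposite, X being lower by a mean log2 difference of −0.09 ± 0.10 (n = 8, exact permutation p = 0.039, adjusted p = 0.078), in 7 of 8 libraries, which did not pass 0.05 after adjustment. At the centromere ends X and 2L differed by −0.07 ± 0.17 with 3L and −0.10 ± 0.28 with 3R (n = 8, exact permutation, adjusted p = 0.40 for each).

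At the centromere side the assembled sequence ends in pericentromeric heterochromatin, which is rich in repeats and poor in reads that can be placed. The outermost usable windows were chrX:21400001-22400000, chr2L:22000001-23000000, chr3L:20800001-21800000 and chr3R:1600001-2600000, so that the 3L block began 2.84 Mb and the 3R block 1.70 Mb from the end of the assembled arm, measured at the middle of the nearest window. Between X and 2L, the log2 ratio was 0.81 and 0.76 in untreated cells, 0.79 and 0.86 after mock RNAi, 0.82 and 0.68 after Slmb RNAi, and 0.68 and 1.24 after Top2 RNAi. Here untreated and mock RNAi libraries overlapped, and only the second Top2 library stood apart, at the top. The mean was 0.83 ± 0.18 (SD, n = 8, exact permutation, adjusted p = 0.013), and 1090 pairs were observed for 634 expected in pooled untreated cells.

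The centromere block of X with 3R gave a mean of 0.36 ± 0.23 (adjusted p = 0.013 by the exact permutation test, n = 8) and a range of 0.07 to 0.74. That with 3L gave 0.22 ± 0.17 (adjusted p = 0.017 by the exact permutation test, n = 8) and a range of −0.01 to 0.59. At the centromere the maternal homolog of 2L exceeded the paternal by 0.23 ± 0.22 (n = 8, exact permutation p = 0.031), above 0 in 6 of 8 libraries. Adjusted over the 6 such differences at both kinds of ends, p was 0.19.

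The 6 mixed blocks had mean log2 ratios from −0.34 to −0.14. The lowest was the telomere end of X with the centromere end of 3R, −0.34 ± 0.25. The centromere end of X with the telomere end of 2L was −0.14 ± 0.13, but −0.29 without the narrow segments described further on and −0.25 with both mapping qualities at least 20. All 12 blocks passed 0.05 over 8 libraries (exact permutation, adjusted p = 0.013 to 0.031). With no mask 8 passed, and the telomere end of X with the centromere ends of 3L and 3R (adjusted p = 0.27 and 0.11, exact permutation) and the centromere end of X with that of 3R (adjusted p = 0.076, exact permutation) did not. Leaving out the second untreated, the first mock, the first Slmb or either Top2 library, 11 passed, with the centromere end of X and the telomere end of 2L at an adjusted p of 0.0625 by the exact permutation test. With 2 against 2 libraries no difference between conditions could pass 0.05, but the telomere blocks rose by 0.42, 0.42 and 0.72 from untreated to mock RNAi with 2L, 3L and 3R on the log2 scale, while the centromere blocks differed by 0.04, 0.06 and 0.04. A rise at telomeres was not particular to X. The telomere block of 2L with 3R had 0.22 and 0.28 in untreated cells and 0.67 and 0.65 after mock RNAi. That of 2L with 3L had 0.22 and 0.33, then 0.50 and 0.63.

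**Figure D2:**
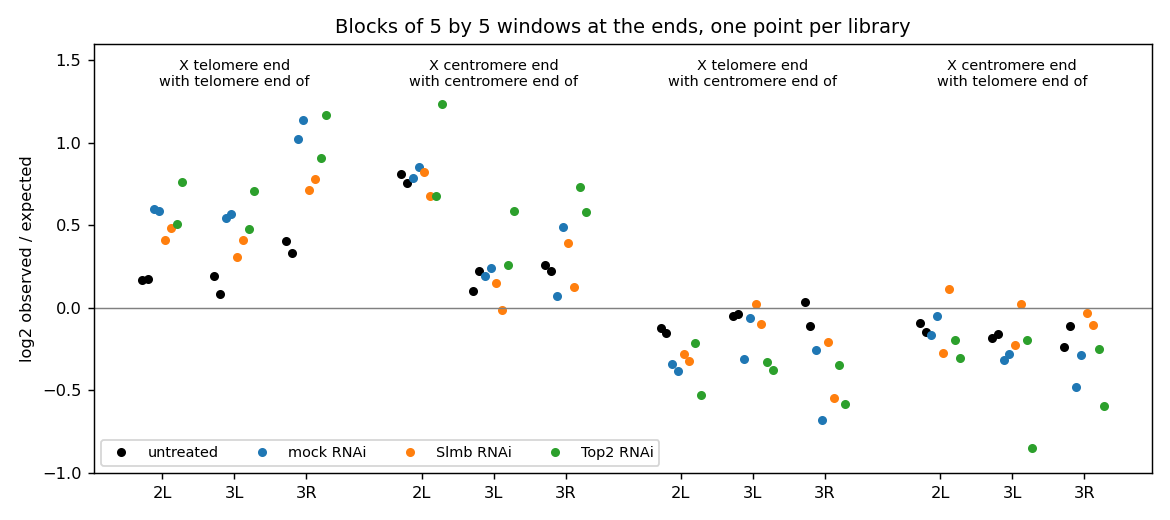
Log2 ratio of observed to expected pairs (vertical axis) in each of the 12 blocks that join an end of X to an end of 2L, 3L or 3R, with a point for each of the 8 libraries, coloured by group. Telomere blocks of X with 3R lie from 0.33 to 1.17, and the untreated points are lowest in all 3 telomere blocks.

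At the telomere ends single terminal windows gave larger ratios than the blocks. The outermost 200 kb of X with the outermost 200 kb of 3L had 63 pairs in pooled untreated cells where 7.13 were expected, a ratio of 8.84. The ratio was 8.97 and 8.70 in the untreated libraries, 13.7 and 15.3 after mock RNAi, 9.71 and 11.2 after Slmb RNAi, and 14.5 and 17.7 after Top2 RNAi. With the outermost window of 3R, chr3R:27800001-27905053, 162 pairs were seen where 28.4 were expected, a ratio of 5.71. With that of 2L there were 113 pairs where 36.7 were expected, a ratio of 3.08. Leaving out narrow segments described further on, the 3 ratios were 5.89, 4.21 and 3.06. At the centromere side the outermost windows gave ratios of 1.17 with 2L, 1.48 with 3L and 1.30 with 3R, on 19, 15 and 9 pairs. The blocks there had ratios of 1.72, 1.12 and 1.18 in pooled untreated cells, so that with 2L the block was the higher.

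**Figure D3:**
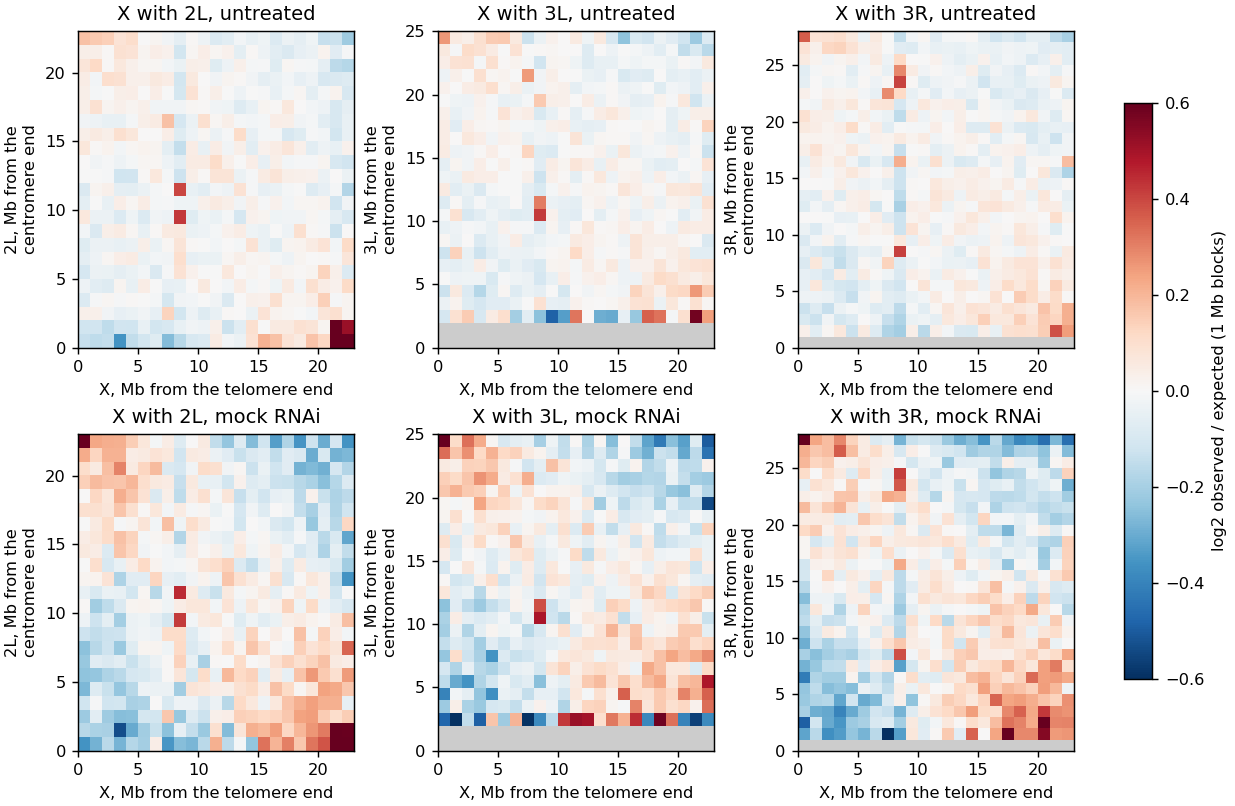
Maps of X with 2L, 3L and 3R in blocks of 1 Mb for pooled untreated cells (top) and mock RNAi (bottom). The horizontal axis is the distance from the telomere end of X and the vertical axis that from the centromere end of the arm, in Mb, colour is the log2 ratio of observed to expected pairs, and grey blocks were masked. The upper left (telomere with telomere) and lower right (centromere with centromere) corners are red, most strongly for mock RNAi, and single blocks stand out near 8 Mb of X.

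Over all windows, the ends included, contacts depended on the distance from the centromere along both chromosomes. Window pairs whose distances from the centromere end differed by at most 2 Mb were compared with those whose distances differed by more than 10 Mb. The log2 ratio of the first to the second was 0.05 and 0.05 in untreated cells, 0.19 and 0.19 after mock RNAi, 0.12 and 0.14 after Slmb RNAi, and 0.14 and 0.29 after Top2 RNAi. It was positive in 8 of 8 libraries (mean 0.15 ± 0.08, exact sign-flip permutation p = 0.0078). Untreated cells were lowest, Slmb RNAi lay below mock RNAi, and the 2 Top2 libraries lay on either side of mock RNAi. With the outer 2 Mb of every arm left out, the mean remained positive at 0.10 ± 0.06, again in 8 of 8 libraries (exact permutation p = 0.0078). The values were then 0.03 and 0.03 in untreated cells and 0.14 and 0.14 after mock RNAi. They were 0.09 and 0.10 after Slmb RNAi, and 0.09 and 0.21 after Top2 RNAi.

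The same measure was larger between 2L and chromosome 3, with a mean of 0.20 ± 0.10. The difference, X minus 2L, was −0.05 ± 0.02 (n = 8, exact sign-flip permutation p = 0.0078) and below 0 in 8 of 8 libraries. By arm, the mean was 0.18 ± 0.10 for X with 2L, 0.12 ± 0.07 for X with 3L and 0.13 ± 0.07 for X with 3R. The untreated libraries had the highest autosomal shares of X pairs and the flattest curves, and the second Top2 library had the lowest share and the steepest curve. The untreated libraries were also the deepest. The part of depth or of the share of contacts between chromosomes in this order was not tested.

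**Figure D4:**
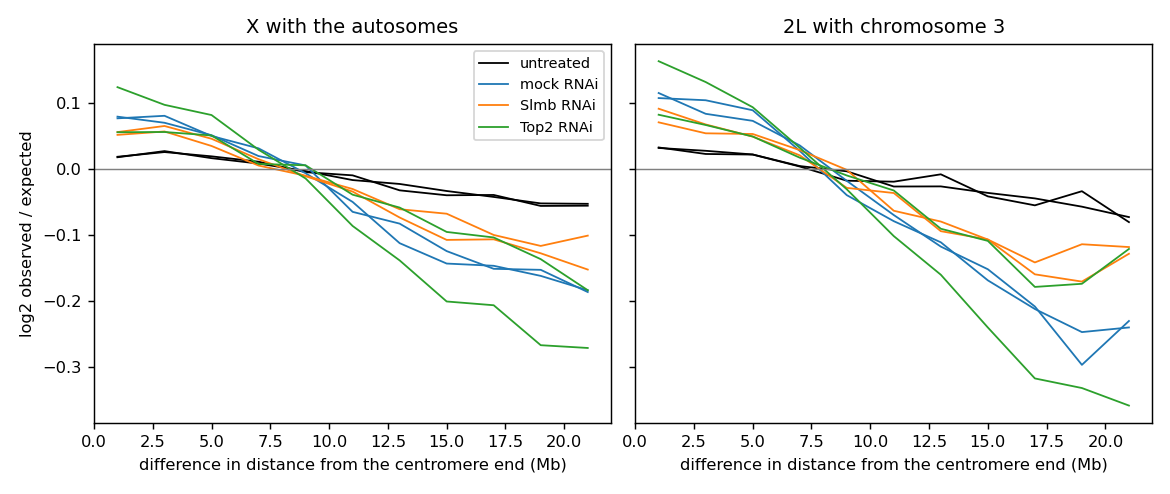
Log2 ratio of observed to expected pairs against the difference in distance from the centromere end (Mb, bins of 2 Mb), with a line for each library, for X with the 3 arms (left) and for 2L with chromosome 3 (right). All lines fall with distance, the untreated ones least.

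Classes of windows by an eigenvector of the *cis* maps of untreated cells were a weak guide to these contacts at 200 kb. Windows in the top and bottom quintiles of the chosen *cis* eigenvector met windows of a like class on another chromosome more often than windows of the opposite class by 0.04 ± 0.02 on the log2 scale (n = 8, exact permutation p = 0.0078). By arm the mean was 0.12 for 2L and 0.03 for 3R, but −0.03 for 3L. In windows of 40 kb it was 0.17 ± 0.04 and above 0 in 8 of 8 libraries for each of the 3 arms (exact permutation p = 0.0078). The eigenvectors were chosen and oriented by boundary density, to which they were related only weakly (Spearman's rho across windows of 0.12 to 0.40 at 200 kb and 0.15 to 0.25 at 40 kb), so the class names of single windows are uncertain. At 200 kb eigenvector 2 was used for X, 3 for 2L and 3L and 1 for 3R. At 40 kb it was 3 for 2L and 1 for X, 3L and 3R. Whether these classes match active and inactive compartments was not tested.

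Maternal and paternal partners were next compared, which asked whether X, itself maternal, met either homolog more often. X–autosome pairs had a maternal partner in 53.5% and 53.5% of cases in untreated cells and in 54.1 to 54.8% in RNAi libraries. The excess came from 3R. On 2L the log2 ratio of maternal to paternal partners was 0.01 ± 0.004 and on 3L 0.01 ± 0.02 (SD, n = 8). On 3R beyond 3.2 Mb it was 0.61 and 0.62 in untreated cells, 0.74 and 0.77 after mock RNAi, 0.84 and 0.82 after Slmb RNAi, and 0.79 and 0.70 after Top2 RNAi, lower in untreated than in RNAi libraries.

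The pairs of 3R with 2L carried the same imbalance, with a log2 ratio of 0.61 to 0.84 over the same windows. Relative to those pairs, the ratio of maternal to paternal partners of X was −0.002 ± 0.014 on this part of 3R and 0.004 ± 0.058 on 3R up to 3.2 Mb. It was 0.004 ± 0.006 on 2L and −0.007 ± 0.012 on 3L. None passed the exact sign-flip permutation test (adjusted p = 0.28 to 0.79, n = 8), and the range over libraries was −0.10 to 0.09 on the proximal part of 3R and within −0.03 to 0.02 elsewhere.

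Relative to *cis* pairs in place of pairs with 2L, X was less maternal on 3R by a mean log2 difference of −0.38 ± 0.03 beyond 3.2 Mb and −0.25 ± 0.05 before it (n = 8, exact permutation, adjusted p = 0.016 for each). Pairs between 2 copies of the same homolog are counted as *cis* here, and the part of the maternal disomy of 3R in these values was not tested. Window by window, a limma fit of homolog by partner over 362 windows of the 3 arms called none at an adjusted p of 0.05. There were 14 windows at an unadjusted p under 0.05, the smallest adjusted p was 0.94, and the central 90% of log2 differences lay between −0.07 and 0.06.

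Windows of X were then ranked by the autosomal share of their contacts in pooled untreated cells, counted over the X sides of *cis* pairs at least 1 kb apart and of pairs with the 3 arms. The median of 112 unmasked windows was 6.58%, with quartiles at 6.06% and 7.26%. The highest share, 17.2%, was at chrX:21600001-21800000 next to the pericentromeric end, where 3107 pairs with the arms were seen. It was 16.6% and 17.8% in untreated cells, 18.1% and 15.1% after mock RNAi, 14.9% and 13.7% after Slmb RNAi, and 15.9% and 9.81% after Top2 RNAi. The neighbouring chrX:21400001-21600000 ranked 5 with 9.30%. Without narrow segments of X described further on, the shares of these windows were 15.6% and 7.73%, the latter below windows outside the 5 highest such as that centred at 3.1 Mb with 9.05%.

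The second was chrX:3200001-3400000 with 11.4%, from 8.06% in the second Top2 library to 11.7% in the second untreated library. The telomeric window chrX:1-200000 was the third with 10.7%, or 9.75% without the segments, and it was higher in the mock RNAi libraries, at 13.0% and 11.7%, than in untreated cells, at 10.4% and 11.1%. The 5 lowest windows lay in the proximal part of the arm and had shares of 5.15 to 5.42%, namely chrX:15000001-15200000, chrX:15200001-15400000, chrX:15800001-16000000, chrX:12800001-13000000 and chrX:17800001-18000000.

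The fourth highest, chrX:8000001-8200000 with 10.5%, owed its rank to 2 kb. Of its 44538 pairs with the arms, 21477 had their X side in chrX:8188001-8190000, and without them the share was 5.73%, below the median. A scan of X in segments of 1 kb marked 59 of 22423 segments with over 30 pairs to the arms per 100 *cis* sides and at least 50 pairs, against 7.16 per 100 over all of X. They held 40416 pairs, 1.47% of the untreated pairs, and 14 of them lay in the last 1 Mb at the centromere side. The share of X–autosome pairs in them was 1.48% and 1.45% in untreated cells and 1.57 to 2.24% in RNAi libraries, highest in the second Top2 library. A second filter marked segments of 1 kb on each autosomal homolog with over 5 times the median of its nonempty segments. Where narrow segments were left out of blocks, window pairs or fits, these arm segments were left out too. In the shares of X windows only the segments of X were left out.

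The segment chrX:8189001-8190000 had 14394 pairs, 112-fold the median segment, and chrX:8188001-8189000 had 7083. Their pairs were not spread evenly along the arms. Over all libraries 42492 pairs joined chrX:8188001-8190000 to the arms, and on 3L the windows chr3L:13600001-13800000, chr3L:13800001-14000000 and chr3L:13400001-13600000 took 909, 861 and 828 of them, where the median window took 55. In chr3L:13600001-13800000 the partner was maternal in 438 pairs and paternal in 471. On 2L the leading window was chr2L:11600001-11800000 with 773 pairs (median window 63), and on 3R chr3R:22000001-22200000 with 756 (median window 75).

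A further pair of segments, chrX:7739001-7741000, had 6521 pairs, of which 492 went to chr2L:6000001-6200000 and 448 to chr3L:2600001-2800000, where the median window took 6 and 7. Here the paternal homolog took 366 of the 492 pairs and 326 of the 448. The lower mapping quality of a pair had a median of 26 in both segments of chrX:8188001-8190000, against 20 and 12 in the 2 segments of chrX:7739001-7741000 and 26 or 27 over all X–autosome pairs of a library. Close to the telomere, chrX:6001-10000 had 5235 pairs over all libraries, and its leading windows were the terminal ones of each arm on 2L (23 pairs), on 3L (46 pairs) and, after chr3R:27600001-27800000 with 146 pairs, on 3R with 138 pairs. X sides lay on the plus strand in 97.1% of pairs in chrX:7739001-7740000 and in 4.79% in chrX:8188001-8189000.

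These segments also led the ranking of single window pairs. In pooled untreated cells, 3 window pairs were named per arm by their ratio of observed to expected pairs, with at least 20 observed. For 3L, after the terminal pair given above, they were chrX:8000001-8200000 with chr3L:13600001-13800000 (524 pairs, ratio 5.78) and with chr3L:13400001-13600000 (481 pairs, ratio 5.24). For 3R, after the terminal pair, they were chrX:7600001-7800000 with chr3R:7200001-7400000 (156 pairs, ratio 5.08) and chrX:8000001-8200000 with chr3R:8600001-8800000 (427 pairs, ratio 3.54). Without the narrow segments these 4 ratios fell to 1.13, 1.12, 1.32 and 0.85.

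For 2L the first was chrX:21600001-21800000 with chr2L:22600001-22800000, both near the centromere, with 30 pairs and a ratio of 6.09, or 6.69 without the segments. Its ratio was 7.50 and 4.89 in untreated cells, 5.30 and 5.77 after mock RNAi, 6.05 and 6.14 after Slmb RNAi, and 5.25 and 5.44 after Top2 RNAi, but on only 2 to 5 pairs in each RNAi library. The second, chrX:7600001-7800000 with chr2L:20200001-20400000, had 273 pairs and a ratio of 4.06, and 172 of its pairs lay in a single square of 1 kb by 1 kb. The third, chrX:21000001-21200000 with chr2L:21600001-21800000, had 207 pairs and a ratio of 3.89, and 141 of its pairs lay in chrX:21052001-21053000. The median lower mapping quality of these 2 was 8 and 7, and without the segments their ratios were 1.2 and 1.36.

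Autosomal windows were compared by how they divided their contacts between X and the other autosome. In pooled untreated cells X took a median of 42.2% of the pairs of 2L windows with X and chromosome 3 (range 39.5 to 44.7%). Of the pairs with X and 2L it took a median of 59.1% in 3L windows (range 54.8 to 61.7%) and of 58.3% in 3R windows (range 50.5 to 61.3%). The medians differ by construction, since 2L had 2 other arms to meet and 3L and 3R had 1, so that the 5 lowest windows of all were on 2L, and windows are given here against the median of their arm. The window farthest from it was chr3R:27600001-27800000 near the telomere, with a difference of −7.83 percentage points. X took 50.8% and 50.2% of its pairs in untreated cells, 50.6% and 52.7% after mock RNAi, 52.6% and 51.5% after Slmb RNAi, and 56.8% and 51.7% after Top2 RNAi, so that the first Top2 library stood above the others. The lowest windows of 3L and 2L also lay near the telomere, chr3L:1-200000 with 54.8% and chr2L:200001-400000 with 39.5%. The highest were chr3R:4800001-5000000 with 61.3%, chr3L:13800001-14000000 with 61.7% and chr2L:22800001-23000000 with 44.7%, which exceeded their arm's median by 2.96, 2.66 and 2.54 percentage points. These windows were chosen after their values were seen. The 5 highest of all by the percentage itself were on 3L, down to 61.3% at chr3L:18200001-18400000.

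Changes between conditions were tested with limma on the counts of each X window with each homolog of each arm and of each autosomal window with X, together with windows of 2L and chromosome 3 counted over each other. Counts by X window and by autosomal window tally the same pairs from either side. Mock RNAi differed from untreated cells in 127 of 1419 counts with X that were higher and 261 that were lower at an adjusted p of 0.05. Over all 2149 counts tested 16.7% were called higher and 13.4% lower, so X had fewer rises and more falls than the whole table. The median log2 fold change was −0.03 over counts with X and 0.08 over those of 2L with chromosome 3. Leaving out any 1 of the 4 libraries left 72 to 86 higher and 129 to 161 lower. Without 3R, whose maternal share itself differed between these groups, 60 of 918 counts were higher and 144 lower.

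Rises made up a larger share of the counts at the telomere end of X than elsewhere on it. Of 60 counts in its first 2 Mb, 28 were higher and 0 lower. In the last 2 Mb, 5 of 66 were higher and 28 lower, and between them 28 of 552 were higher and 95 lower. All 6 counts of chrX:1-200000 were higher, with log2 fold changes of 0.29 to 0.58, and so were all 6 of chrX:200001-400000, at 0.21 to 0.43. For chrX:400001-600000 it was 5 of 6.

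Fold changes are relative to each library's tallies between X, 2L and chromosome 3, which are themselves a varying share of the library, and the mock RNAi libraries were the shallower ones. Among the counts that passed 0.05, the largest rise was that of chrX:1-200000 with maternal 3R, which had 2508 and 2842 pairs in untreated cells and 1204 and 1171 after mock RNAi (log2 fold change 0.58 ± 0.04 SE, limma adjusted p = 2.39e-27). The terminal window of maternal 3R with X followed with 0.48 ± 0.06 SE (adjusted p = 2.38e-10, limma) and chrX:200001-400000 with maternal 3R with 0.43 ± 0.03 SE (adjusted p = 8.44e-20, limma). Among falls that passed 0.05, paternal chr3R:3400001-3600000 with X came first at −0.44 ± 0.06 SE (limma adjusted p = 1.31e-08), then the pericentromeric chrX:22000001-22200000 with paternal 3L at −0.42 ± 0.06 SE and with paternal 3R at −0.38 ± 0.06 SE (limma adjusted p = 2.60e-08 and 1.18e-06). Of 113 X windows, 27 were higher and 12 lower with maternal 3R, and 3 were higher and 46 lower with paternal 3R. Over all counts with X, 8.95% were higher and 18.4% lower. Untreated and mock RNAi libraries also differed in depth, in the autosomal share of X pairs and in the maternal share of 3R, whose part was not tested.

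**Figure D5:**
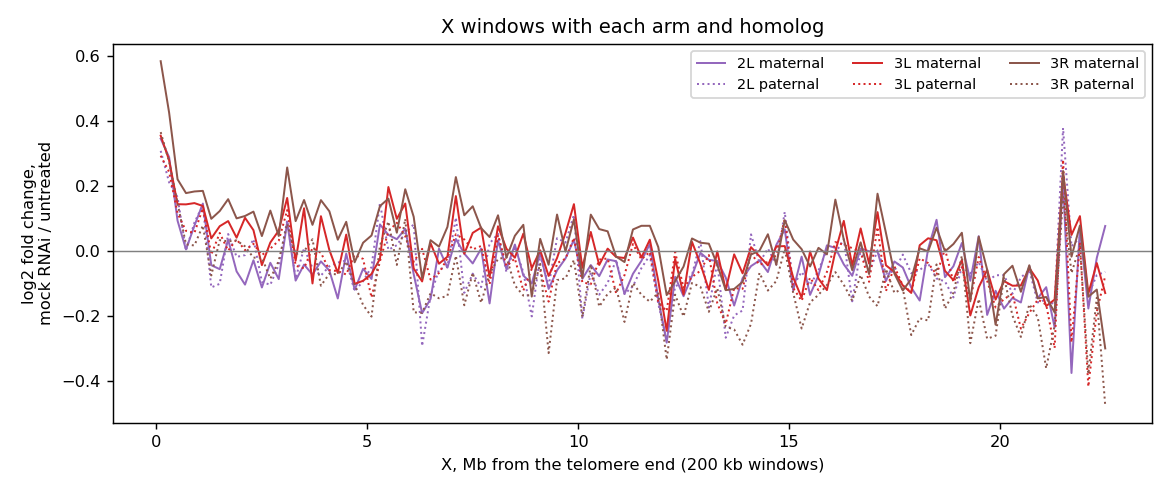
Log2 fold change of mock RNAi over untreated cells (limma) in each 200 kb window of X with the maternal (solid) or paternal (dotted) homolog of 2L, 3L and 3R, against the distance from the telomere end of X in Mb. All 6 lines rise at the telomere end, to between 0.29 and 0.58 in the first window.

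Tests of single window pairs gave the same place. Of 37939 window pairs of X tested, 33 were higher after mock RNAi and 0 lower at an adjusted p of 0.05 (limma, 2087 at an unadjusted p under 0.05), where 0.0912% of all 60306 window pairs were called higher. Between 2L and chromosome 3, 22 of 22367 were higher and 0 lower, so window pairs of X were not called more often than the rest. In counts simulated for this fit, 0 of 50 window pairs set to 0.5-fold and 0 of 50 set to 0.25-fold were called. Of 50 set to 2-fold 18 were called, and of 50 set to 1.5-fold 1. The count of 0 lower therefore does not show that no window pair fell. In 19 of the 33 both windows lay within 2 Mb of a telomere end, 11 of them with 3R, 5 with 3L and 3 with 2L. In a further 10 the X window lay within 2 Mb of the telomere end and the arm window farther inside. Log2 fold changes of the 33 ran from 0.82 to 2.01. The count moved with the libraries and reads used: it was 758 or 567 without the first or the second untreated library, 18 or 13 without the first or the second mock library, and 7 with both mapping qualities at least 20.

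The window pair chrX:1-200000 with chr3R:27600001-27800000 had 74 and 83 pairs in untreated cells and 86 and 102 in the far shallower mock RNAi libraries, a log2 fold change of 2.01 ± 0.14 SE (limma adjusted p = 5.10e-13). That of chrX:200001-400000 with chr3R:27800001-27905053 had 42 and 44, then 40 and 62 pairs (1.96 ± 0.20 SE, limma adjusted p = 2.38e-08). That of chrX:200001-400000 with chr3L:1-200000 had 9 and 12, then 8 and 18 pairs (1.94 ± 0.41 SE, limma adjusted p = 0.038). This last window pair passed the filter on low counts only through the mock RNAi libraries, in which it was high. Its call among the 33 is therefore no support for a rise. All 3 window pairs had more pairs in at least 1 mock library than in either untreated library. Another of the 33, chrX:21400001-21600000 with chr3R:10400001-10600000, had 14 and 18 pairs in untreated cells, then 12 and 17. It did not pass the filter in the first untreated library and entered only with the mock RNAi libraries. Its call is therefore no support for a rise either. Without the narrow segments 17 window pairs were called, all of them among the 33 and 12 of them with both windows within 2 Mb of a telomere end.

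Knockdowns were not separated from mock RNAi in these tests. For Slmb RNAi 0 of 1399 counts with X passed an adjusted p of 0.05 in either direction (limma), where 0.0473% of all 2114 counts were called higher and 0% lower, and 154 had an unadjusted p under 0.05. For Top2 RNAi it was 0 of 1399, with 0% called in either direction and 18 at an unadjusted p under 0.05. Of window pairs of X, 0 of 22383 passed for Slmb RNAi and 0 of 22159 for Top2 RNAi (limma, 825 and 831 at an unadjusted p under 0.05). In its first 2 Mb the median log2 fold change of X counts was −0.04 for Slmb RNAi and 0.03 for Top2 RNAi, and neither had a call there. Leaving out the first Top2 library, in which case the second was assumed to vary like the mock libraries, 39 of 1405 counts with X were higher and 45 lower, where 2.31% of all 2121 counts were called higher and 3.11% lower, so the count of 0 for Top2 RNAi depended on including that library.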

How the data were processed

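Hi-C libraries of PnM cells were deposited as lists of unique read pairs, 1 list per library and not pooled. Per the study's methods, the authors trimmed reads with seqtk, aligned them with BWA 0.7.15 to a hybrid genome of both parental haplotypes in dm3 coordinates, kept pairs placed uniquely on 1 homolog at each side and removed PCR duplicates. The deposited lists give positions, strands and, for each side, a mapping quality score from the aligner. Reads without an SNV on an autosome cannot be placed, so coverage of an autosome follows its SNV density, and that of X does not.

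Pairs were tallied in windows of 200 kb and windows under 10% of the median marginal sum were masked. Expected pairs were the product of marginal sums of each X–homolog map. After the data were seen, ends were taken as the outermost 5 unmasked windows. Values per library were tested with exact sign-flip or 2-against-2 permutation tests, two-sided, with Benjamini-Hochberg adjustment. With 8 libraries the smallest possible p is 0.0078. These 8 come from 4 conditions, so an SD over them holds differences between conditions as well as between replicates. Tallies were tested with limma 3.58.1 (voom, trimmed-mean factors computed here) in R 4.3.3, with adjustment over all windows or window pairs between chromosomes, including 2L with chromosome 3. The code was tested on simulated data. A filter on low counts asked for a total of at least 15 pairs. In enough libraries the share of the tallies also had to reach that of 10 pairs in the median library. A shallow library thus passed on fewer pairs than a deep one. A negative binomial model had been planned for these tallies, and limma was used in its place. Python 3.11.15, numpy 2.4.6, scipy 1.17.1 and pandas 2.3.3 were used.

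Named regions were all 12 end blocks, the 3 highest window pairs per arm with at least 20 pairs, up to 3 highest and 3 lowest fold changes per comparison, and the 5 highest and 5 lowest windows. Regions and lists were chosen with earlier results of these data known. RNA-seq samples were not used here. The narrow segments of 1 kb were defined after the data were seen.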

Additional observations from a re-analysis of the deposited data

Results flagged for a closer look

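In 5 comparisons of the maternal to paternal ratio of X partners, taken relative to pairs of the same part of 3R with 2L, every library of one group lay above 0 and every library of the other below it. None of these differences was tested, and groups held 2 libraries each. On 3R up to 3.2 Mb both Top2 RNAi libraries were below 0, at −0.06 and −0.10 on the log2 scale, and the other 6 were above it, from 0.002 to 0.09. The group means differed by 0.090 between untreated cells and Top2 RNAi, by 0.11 between mock and Top2 RNAi and by 0.13 between Slmb and Top2 RNAi. On 3R beyond 3.2 Mb both mock RNAi libraries were below 0, at −0.03 and −0.01. Untreated cells exceeded mock RNAi there by 0.025, and mock RNAi minus Slmb RNAi was −0.023.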

How the results depend on the processing

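Leaving out 1 library at a time, the difference in autosomal share of X pairs ranged from −2.15 to −0.70 percentage points for mock RNAi against untreated cells, from −1.30 to 0.33 for Slmb RNAi against mock RNAi (0.24 without the first mock library) and from −2.97 to 0.39 for Top2 RNAi against mock RNAi. X against 2L gave −0.056 with *cis* pairs 10 kb to 1 Mb apart and 0.24 with part of the pairs between homologs added. Relative to *cis* pairs, the maternal to paternal difference was −0.0040 on 2L, −0.25 on proximal and −0.38 on distal 3R. Leaving out 1 library was done only for the values relative to pairs of 3R with 2L. It gave −0.0080 to 0.018 on proximal and −0.0045 to 0.0022 on distal 3R (−0.0036 without the first mock library on proximal, 0.00011 without the second mock library on distal 3R). With ends of 200 kb the telomere end of X with the centromere end of 2L was 0.083, and 4 blocks passed 0.05, where 5 blocks gave no value. Without a mask 8 blocks passed and 1 gave no value. Counts over X windows, leaving out 1 library, ranged from 72 to 86 higher and 129 to 161 lower for mock RNAi, 0 to 1 lower for Slmb RNAi, and 0 to 39 higher and 0 to 45 lower for Top2 RNAi, and without the narrow segments 1 was lower for Slmb RNAi. Window pairs higher after mock RNAi numbered 13 to 758 leaving out 1 library, 12 with no filter on low counts, 7 with both mapping qualities at least 20, 17 without the narrow segments and 82 in windows of 1 Mb, and 1 to 15 were lower leaving out 1 library and 98 in windows of 1 Mb. For Slmb RNAi 0 to 1 window pair was lower leaving out 1 library, 1 without the narrow segments and 1 in windows of 1 Mb. Without the narrow segments the ratio of chrX:8000001-8200000 with chr3R:8600001-8800000 was 0.85. The cause of these changes was not tested.

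Replicate numbers alone do not pair the libraries, and replicate differences of window counts correlated by −0.06, 0.03 and 0.12 for mock, Slmb and Top2 RNAi. With the replicate block, 168 of 37939 window pairs of X were higher and 1 lower for mock RNAi, against 183 of 22367 higher and 0 lower for 2L with chromosome 3. For Slmb RNAi 2 of 1399 window counts with X were lower, and 1 of 715 for 2L with chromosome 3. The second count-based tool that had been planned was not run. Depth limits single window pairs most, with 6.90 pairs in a mean window pair of the smallest library, and a count of 0 called there does not show that contacts did not differ.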
